A study of Mus musculus with 4 samples.

Results

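A set of 10 genes that are used to tell kidney macrophages apart were followed across spatial transcriptomic sections of normal and ischemic mouse kidney. They were taken as named lists and not by a rule on their values, but the lists were chosen with earlier results of these data known. They held 5 resident genes (C1qa, C1qb, C1qc, Cx3cr1 and Csf1r) and 5 recruited or activated genes (Lyz2, Ccr2, Plac8, Cd14 and Cd68), 10 of the 32285 genes in the count tables. All sections came from left kidneys of male wild-type C57BL/6J mice aged 7 to 8 weeks, cut at 10 µm and placed on Visium capture areas, whose barcoded spots each cover a patch of tissue that can hold several cells. Normal sections 1 and 2 came from control kidneys, and ischemic sections 1 and 2 from kidneys with 30 min of ischemia on both sides, collected 24 h later. The sources do not tie a section to a mouse, and p-values therefore measured the spread between sections, which may be technical.

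Resident kidney macrophages settle early in life, renew under the CSF1 receptor (Csf1r) and its ligands CSF1 and IL-34, and make the C1q chains that start the classical complement pathway. After ischemia, blood monocytes that carry the chemokine receptor CCR2 follow CCL2 and related chemokines into the injured kidney, and neutrophils arrive as well. Lyz2 (lysozyme), Cd14 (the lipopolysaccharide co-receptor), Cd68 (a lysosomal membrane protein) and Plac8 are high in monocytes but not private to them: neutrophils also make lysozyme, CD14 and PLAC8, and epithelial cells can make some of these genes too.

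The 4 sections held 25957128 to 44528078 unique molecular identifiers (UMIs) over 2401 to 2682 tissue spots each, and normal section 1 was the deepest. Levels are given as CPM, the UMI counts of a gene scaled to a common total per section or zone. Differences are log2 values of ischemic minus normal from edgeR's quasi-likelihood test on summed counts, with the standard error (SE) and a Benjamini-Hochberg adjusted p over all genes tested, called at 0.05. edgeR scales by the trimmed mean of M-values (TMM), which centres most genes near 0. On plain CPM the median gene of whole sections lay 0.31 (log2) higher in the ischemic sections, and a small decrease in a test can therefore stand beside levels that overlap in CPM. In spots, fewer cells of a type and less RNA per cell cannot be told apart.

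The recruited or activated genes took over the larger share of the counts in the ischemic sections. Summed over the 5 genes, resident CPM was 146 in normal 1, 203 in normal 2, 128 in ischemic 1 and 128 in ischemic 2. Summed recruited CPM was 73.1, 111, 237 and 235 in normal 1, normal 2, ischemic 1 and ischemic 2. Recruited over resident CPM was 0.50 in normal 1, 0.549 in normal 2, 1.85 in ischemic 1 and 1.84 in ischemic 2, so the recruited sum was below the resident sum in both normal sections and above it in both ischemic sections. Without C1qb and Lyz2, the gene with the most counts in each set, the ratio was 0.277, 0.316, 2.12 and 2.18. Both genes changed little between the groups over whole sections, so leaving them out widens the ratio and lends it no support. Plac8, which rose with ischemia and had 7111 counts against 8380 of Lyz2, was not left out in turn. Csf1r, the resident gene with the largest fall, was not left out either, while the C1q chains overlapped between the groups in CPM. These sums were not tested.

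**Figure D1:**
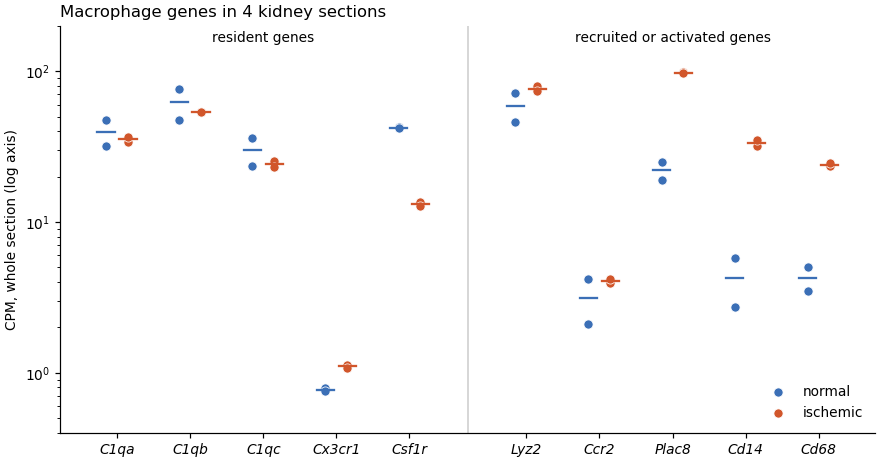
CPM of the 10 genes in whole sections on a log axis, 1 point per section (blue normal, orange ischemic) with the mean of 2 sections as a bar. Plac8, Cd14 and Cd68 lie far above their normal points in both ischemic sections, Csf1r far below, and the C1q chains overlap.

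Over whole sections, all 10 genes passed the filter on low counts. Of these, 7 were called, 3 higher (Cd14, Cd68 and Plac8) and 4 lower (Csf1r and the 3 C1q chains), against a background of 60.6% of the 15305 genes tested that were called in either direction, 31% higher and 29.7% lower. With library size as the only scaling, 4 of the 10 were called and the split over all genes moved from 4737 higher and 4542 lower to 5750 higher and 2829 lower.

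Cd14 had the largest difference of the 10. Its level was 2.74 and 5.75 CPM in the normal sections and 31.9 and 35.1 CPM in the ischemic sections. Both ischemic sections were far above both normal sections, by 2.78 on the log2 scale (SE 0.20, adjusted p = 4.38e-06, edgeR), which is 6.85-fold. Cd68, whose protein sits in the lysosomes of phagocytes, stood at 3.48, 4.99, 23.5 and 24.4 CPM in normal 1, normal 2, ischemic 1 and ischemic 2. The groups were again well apart, with a difference of 2.25 (SE 0.12, adjusted p = 9.53e-07, edgeR). Plac8 rose from 19.0 and 24.95 CPM to 98.0 and 97.5 CPM, a difference of 1.89 (SE 0.10, adjusted p = 7.9e-07, edgeR).

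Lyz2 and Ccr2 did not follow these 3 genes when whole sections were compared. Lyz2 was at 45.8 and 71.5 CPM in the normal sections and 79.4 and 73.3 CPM in the ischemic sections. The ischemic sections were the higher ones, but only by 0.13 in the test (SE 0.13, adjusted p = 0.406, edgeR). Ccr2, the receptor that classical monocytes use to leave the marrow, was sparse, with 441 counts over the 4 sections, and stood at 2.11, 4.19, 3.93 and 4.199 CPM. Its groups overlapped, with a difference of 0.15 (SE 0.25, adjusted p = 0.63, edgeR). Without normal section 2 both were called higher, Lyz2 by 0.30 (adjusted p = 0.000338) and Ccr2 by 0.51 (adjusted p = 0.032, edgeR).

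Among the resident genes, Csf1r fell most. It was at 42.6 and 41.8 CPM in the normal sections and 13.7 and 12.8 CPM in the ischemic sections. The normal sections were alike and both ischemic sections lay at a much lower level, a difference of -1.96 (SE 0.12, adjusted p = 1.98e-06, edgeR), or 3.88-fold. The annotated 3′ end of Csf1r shares 873 bases with Hmgxb3 on the other strand, and Hmgxb3 was at 14.4, 16.6, 17.9 and 17.8 CPM, with a difference of -0.07 (adjusted p = 0.578, edgeR). Hmgxb3 was added after its overlap with Csf1r was seen.

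The 3 C1q chains, which assemble into 1 complement protein, moved little. C1qb was at 47.5 and 76.6 CPM in the normal sections and at 53.8 CPM in each ischemic section. C1qa was at 31.9, 47.2, 34.1 and 36.8 CPM and C1qc at 23.5, 36.3, 25.2 and 23.2 CPM, in the order normal 1, normal 2, ischemic 1, ischemic 2. In CPM the ischemic values of C1qa and C1qb fell between the 2 normal ones, and those of C1qc between or just under them. The test called all 3 lower, C1qa by -0.41 (SE 0.12, adjusted p = 0.0129), C1qb by -0.45 (SE 0.14, adjusted p = 0.0179) and C1qc by -0.55 (SE 0.13, adjusted p = 0.00499, edgeR). With library size alone as the scaling no C1q chain was called (differences of -0.15, -0.20 and -0.30), so the calls depended on the scaling. The mean CPM was lower in the ischemic sections for all 3, at 35.5 against 39.6 for C1qa, 53.8 against 62.0 for C1qb and 24.2 against 29.9 for C1qc, but the groups overlapped. C1qa and C1qb also lost the call when either ischemic section was left out.

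Cx3cr1, the fractalkine receptor, was near the limit of detection with 119 counts in all, and stood at 0.786, 0.759, 1.13 and 1.08 CPM. The difference of 0.22 did not pass the test (SE 0.30, adjusted p = 0.545, edgeR).

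The share of spots with at least 1 count, after thinning each spot to 2000 UMIs, was compared as well, leaving out shallower spots. For Cd14 it was 0.779% and 1.15% of normal spots and 5.63% and 7.10% of ischemic spots. The exact 95% binomial intervals, which cover counting error only, were 0.476% to 1.2% and 0.768% to 1.64% (normal) and 4.74% to 6.65% and 6.12% to 8.17% (ischemic), and those of the groups did not overlap. For Plac8 the shares were 4.83%, 5.37%, 18.1% and 18.9%, whereas Csf1r went down from 9.11% and 8.25% to 2.56% and 3.15%. Lyz2 was found in 8.41%, 11.4%, 11.1% and 10.7% of spots and C1qb in 9.89%, 13.7%, 9.52% and 11.9%, which overlap between conditions.

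Other leukocyte genes were read beside these members. The 12 neutrophil genes summed to 2.18 and 3.54 CPM in the normal sections and to 196 and 199 CPM in the ischemic sections, and 9 of the 9 that could be tested were called higher. S100a8, the neutrophil calgranulin, went from 0.337 and 0.579 CPM to 76.7 and 76.8 CPM. Ly6g, the defining surface marker of mouse neutrophils, was at 0 in both normal sections and at 0.129 and 0.154 CPM in the ischemic ones, which is 8 counts in all. The list thus moved in the same direction as Cd14, Cd68 and Plac8, and its part in the levels of the recruited members was not tested.

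Of the 12 other monocyte genes 9 were called higher and 1 lower. Ifitm3 was at 182, 248, 470 and 482 CPM, Thbs1 at 11.3, 21.7, 94.1 and 99.2 CPM and Fn1 at 32.1, 38.3, 50.1 and 50.6 CPM, all called higher. Ly6c2, the classical monocyte marker, was the one called lower, from 3.57 and 5.03 CPM to 1.09 and 1.04 CPM (log2 difference -2.25, adjusted p = 3.45e-05, edgeR). Its direction was the reverse of those 9.

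Of the 14 other macrophage genes 13 could be tested, 3 were called higher (Itgam, Fcgr1 and Fcgr3), 6 lower and 4 did not pass. The lower ones included Cd74, the invariant chain of MHC class II, at 334, 444, 51.1 and 52.3 CPM, and Apoe at 228, 270, 81.4 and 88.0 CPM. The summed list was 1012 and 1237 CPM in the normal sections and 546 and 545 CPM in the ischemic ones. Most of that fall was Cd74 and Apoe, and the sum does not stand for the list as a whole, whose called genes went both ways. T cell genes fell together, 7 of 7 tested, from a summed 18.2 and 37.0 CPM to 2.93 and 3.28 CPM. Of the 6 dendritic cell genes 5 were lower and 1 higher, and 2 of 2 B cell and 2 of 2 natural killer cell genes tested were lower. Of the 5 genes common to leukocytes, 1 was called lower and 4 did not pass, and Tyrobp, a signalling adaptor of myeloid cells, stood at 49.0, 69.6, 73.8 and 71.3 CPM (difference 0.04, adjusted p = 0.792, edgeR).

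The ligands of the receptors among the members were measured in the same sections. Both ligands of the CSF1 receptor were called higher while Csf1r itself was lower. Csf1 was at 8.98, 14.3, 54.2 and 49.5 CPM, a difference of 1.92 (SE 0.13, adjusted p = 3.83e-06, edgeR). Il34 was at 17.5, 18.3, 109 and 105 CPM, a difference of 2.30 (SE 0.11, adjusted p = 5.03e-07, edgeR). The ischemic sections were above the normal sections for both ligands.

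Of the 4 CCR2 ligands 2 were higher, 1 lower and 1 did not pass. Ccl2 went from 2.02 and 3.22 CPM to 16.9 and 14.0 CPM (difference 2.33, adjusted p = 6.75e-06, edgeR), and Ccl8 from 5.53 and 14.0 CPM to 0.451 and 0.616 CPM (difference -4.41, adjusted p = 2.56e-05, edgeR). Cx3cl1, the ligand of CX3CR1, was higher by 0.85 (adjusted p = 0.000115, edgeR). Of the 4 partners of CD14, the receptor chain Tlr4, its cofactor Ly96 and the adaptor Myd88 were higher and Lbp did not pass. The C1 proteases C1ra and C1s1 and their inhibitor Serping1 were all 3 lower, by -0.41, -1.29 and -1.05. The 9 lysosome genes went both ways, with 3 higher, 4 lower and 2 not past the threshold.

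Spots were next placed in 5 zones, cortex, outer stripe and inner stripe of the outer medulla, inner medulla and pelvis, by marker genes of the tubule segments in a spot and its neighbours, scaled within each section. Several zone markers themselves fell in the ischemic sections (5 of 5 outer stripe markers were called lower), and in the ischemic outer stripe 61.2% and 62.0% of spots kept their zone when neighbours were ignored, against 71.7% and 74.4% in the normal sections. Markers of another zone were higher there: the summed inner medulla markers were at 920 and 928 CPM in the normal outer stripe and 6283 and 6207 CPM in the ischemic outer stripe, above the 4110 and 4248 CPM of the ischemic inner medulla. Most of that sum was Cryab, a small heat shock protein, at 5847 and 5862 CPM in the ischemic outer stripe (log2 difference 2.88, adjusted p = 6.17e-13, edgeR). Zone markers thus changed with ischemia in both directions, and their part in the zone values was not tested. The pelvis was set by rule to about the top 5% of spots of a section. Its own summed markers were at 5215 and 6336 CPM in the normal pelvis and at 766 and 1116 CPM in the ischemic pelvis. When neighbours were ignored, 28.3% and 28.5% of ischemic pelvis spots kept their zone, the lowest share of any zone in the ischemic sections. In the normal sections 66.4% and 63.0% of pelvis spots kept their zone, against 57.8% and 64.4% in the inner stripe. The zones also made up unlike shares of the sections. Inner medulla was 5.12% and 8.35% of normal spots and 12.2% and 11.5% of ischemic spots. Cortex was 45.03% and 43.25% of normal spots and 39.69% and 36.55% of ischemic spots. Whole-section values mix the zones in these shares, and the part of the shares in them was not tested.

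**Figure D2:**
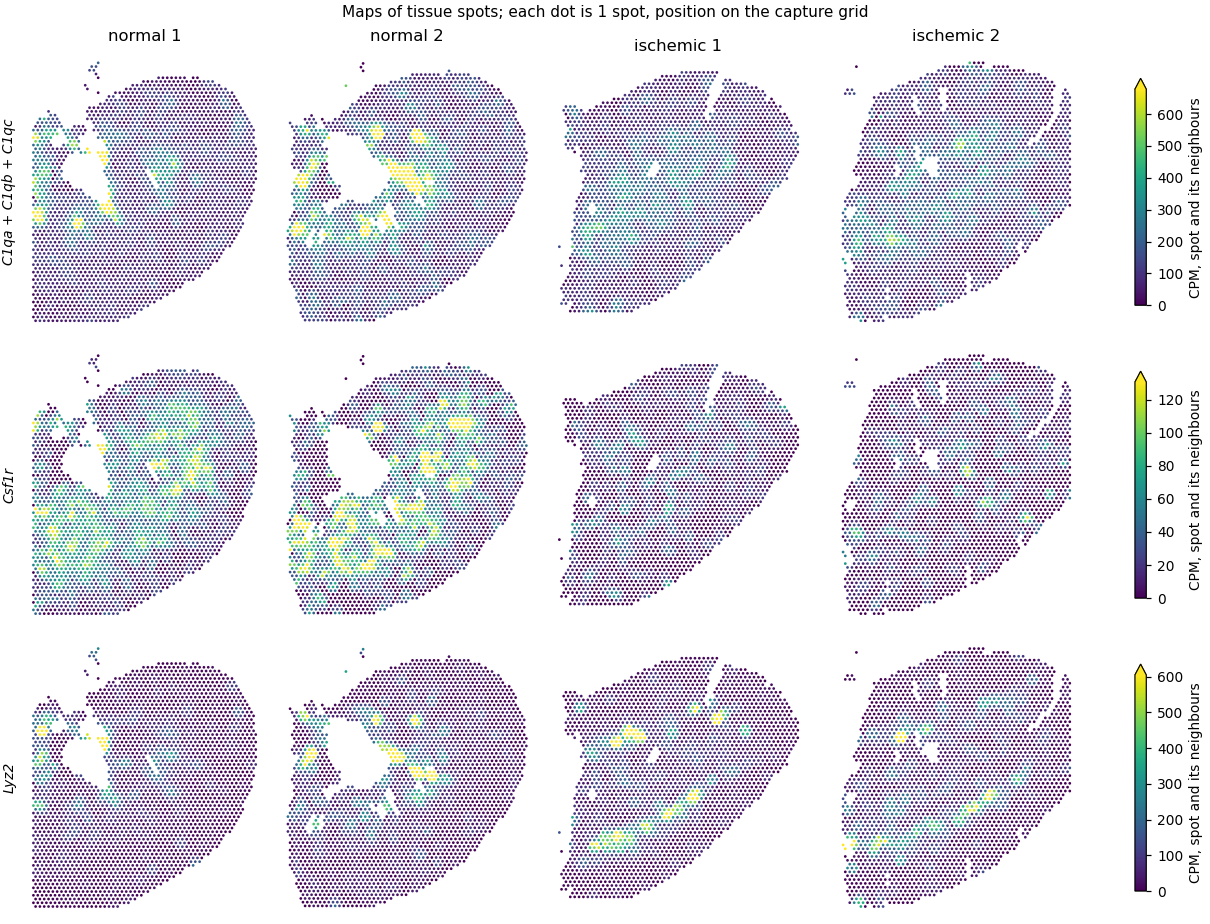
Maps of the 4 sections with each tissue spot coloured by the CPM of a spot pooled with its neighbours, for the summed C1q chains (top), Csf1r (middle) and Lyz2 (bottom), 1 color scale per row that is capped at the 99th percentile. Csf1r forms a broad band in the outer medulla of both normal sections, and Lyz2 forms a narrow band in both ischemic sections.

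In the normal sections the resident genes were not laid out alike. The C1q chains were highest in the pelvis, with C1qb at 32.1 and 49.4 CPM in the cortex, 43.1 and 57.0 CPM in the outer stripe, 80.4 and 126 CPM in the inner stripe, 77.1 and 169 CPM in the inner medulla and 168 and 255 CPM in the pelvis. Csf1r instead was at 18.7 and 18.5 CPM in the cortex, 65.8 and 64.3 CPM in the outer stripe, 65.4 and 56.9 CPM in the inner stripe, 42.5 and 46.9 CPM in the inner medulla and 47.9 and 49.5 CPM in the pelvis. The outer stripe held 54.0% and 55.5% of all Csf1r counts but 31.8% and 26.9% of those of C1qb, of 30.7% and 30.6% of the spots. Its share of the UMIs was larger than that of the spots, at 15559411 of 44528078 in normal 1 and 9978241 of 27657481 in normal 2.

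Outer medulla was then compared with cortex, taking the mean of both stripes and the section as a block. In the normal sections 6 of the 10 genes were higher in the outer medulla and none lower, against 26.3% of 14174 genes called in either direction and 13.4% higher. Csf1r differed most (1.73, SE 0.10, adjusted p = 2.17e-11), then Lyz2 (1.03, SE 0.20, adjusted p = 0.000606) and C1qb (0.78, SE 0.09, adjusted p = 1.11e-06, edgeR). C1qc (0.59), Cd68 (0.51) and C1qa (0.50) were also called. Cd68 was the least certain of the 6, with an adjusted p of 0.047 that was lost in DESeq2 (0.144). Ccr2, Plac8, Cd14 and Cx3cr1 did not pass.

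In the ischemic sections 9 of the 10 genes exceeded their cortex level in the outer medulla, all but Cx3cr1, against 44.5% of genes called and 20.1% higher. Lyz2 now had the largest difference (1.90, SE 0.22, adjusted p = 4.42e-07), followed by Cd68 (1.36, SE 0.12, adjusted p = 9.67e-09) and Ccr2 (1.07, SE 0.33, adjusted p = 0.012, edgeR). When ischemic section 1 was left out 5 of the 10 were called, with Ccr2, Csf1r, C1qa and C1qb lost.

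The test of the change in this contrast called 4 of the 10, 3 higher and 1 lower, against 23.1% of genes, 7.45% higher and 15.7% lower. The excess over the cortex grew with ischemia for Lyz2 (0.88, SE 0.29, adjusted p = 0.0334), Cd68 (0.84, SE 0.22, adjusted p = 0.00853) and Plac8 (0.67, SE 0.12, adjusted p = 0.000423) and shrank for Csf1r (-1.09, SE 0.16, adjusted p = 4.26e-05, edgeR). Lyz2 lost this call in DESeq2 (0.95, adjusted p = 0.0729). The call of Csf1r held without each of the 4 sections in turn. That of Plac8 was lost only without ischemic section 1, and those of Lyz2 and Cd68 were lost when either ischemic section was left out and, for Cd68, without normal section 2.

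**Figure D3:**
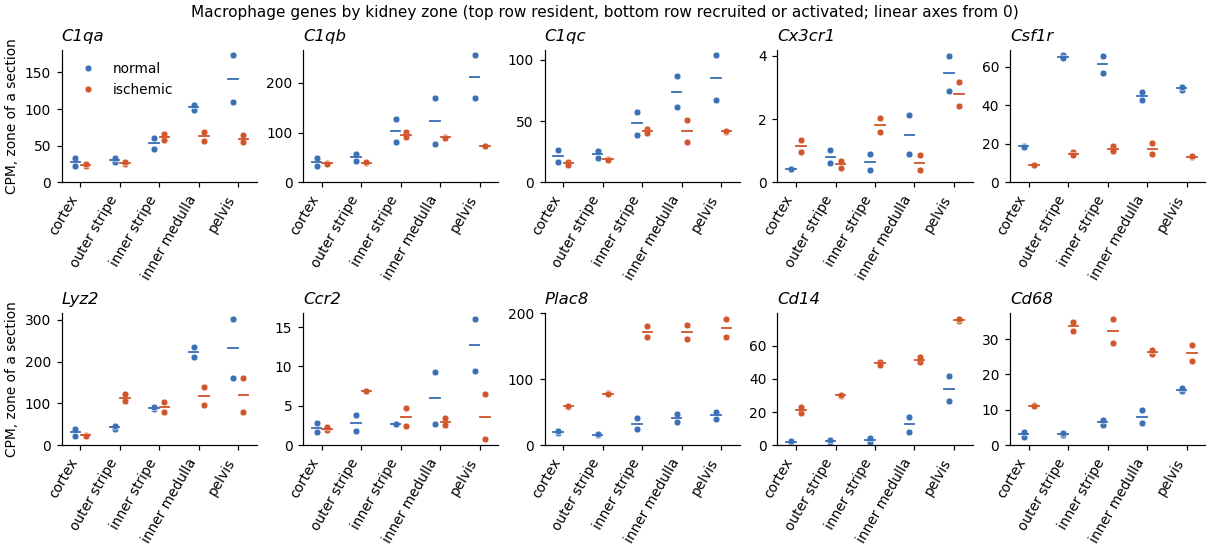
CPM of each gene in the 5 zones, 1 point per section with the mean of 2 sections as a bar, on linear axes that start at 0 and differ between genes. Lyz2 and Ccr2 are higher in ischemic than in normal sections in the outer stripe and overlap or are lower in the cortex, inner medulla and pelvis.

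The outer stripe, where the S3 segment of the proximal tubule lies and where ischemia is known to injure most, was the zone in which all 5 recruited genes were higher and all 4 resident genes that could be tested were lower. Cx3cr1 had too few counts for the test there. The injured tubule genes Havcr1 and Lcn2 summed to 4200 and 4164 CPM in the ischemic outer stripe. That was above the ischemic cortex (1992 and 1948 CPM) and below the ischemic inner stripe (7937 and 8959 CPM). The ischemic inner medulla and pelvis were also above the outer stripe for this sum. The 2 genes were not laid out alike. In the ischemic outer medulla against cortex Havcr1 was lower (-0.74, adjusted p = 2.69e-05) and Lcn2 higher (2.28, adjusted p = 7.64e-11, edgeR). The sum therefore does not rank the zones by injury. The number called was also 9 with zones from the spot alone and with spots clear of a zone boundary. The background was 67.4% of 13305 genes called, 34.5% higher and 32.9% lower. Recruited over resident CPM in this zone was 0.388 in normal 1, 0.413 in normal 2, 2.72 in ischemic 1 and 2.51 in ischemic 2, the widest turn among the zones.

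Lyz2 in the outer stripe was at 39.7 and 47.1 CPM in the normal sections and 121 and 105 CPM in the ischemic sections. Both ischemic values were well above the normal ones in CPM, and the test gave 1.03 (SE 0.10, adjusted p = 6.24e-09, edgeR). Ccr2 was at 1.80, 3.81, 6.86 and 6.92 CPM, a difference of 1.01 (SE 0.26, adjusted p = 0.0017, edgeR), and without normal section 1 the call was lost (0.60, adjusted p = 0.0555, edgeR). Both genes were therefore higher in the outer stripe in spite of no call over whole sections.

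Cd68 was at 2.76 and 3.41 CPM in the normal outer stripe and at 34.9 and 32.4 CPM in the ischemic one, a difference of 3.09 (SE 0.15, adjusted p = 5.03e-14, edgeR). Cd14 was at 1.99, 3.01, 29.6 and 30.4 CPM, a difference of 3.26 (SE 0.17, adjusted p = 9.63e-14, edgeR). Among the members tested in this zone these were the widest gaps, 8.54-fold and 9.57-fold. Plac8 was at 14.97, 17.3, 78.4 and 78.0 CPM, a difference of 1.91 (SE 0.10, adjusted p = 1.61e-13, edgeR).

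Csf1r in the outer stripe fell from 65.8 and 64.3 CPM to 15.5 and 14.4 CPM, a difference of -2.49 (SE 0.12, adjusted p = 1.49e-14, edgeR). That left the ischemic outer stripe below the normal cortex for Csf1r. The resident sum of this zone was 158 and 181 CPM in the normal sections and 99.7 and 100.5 CPM in the ischemic ones. Most of that fall was Csf1r. C1qb went from 43.1 and 57.0 CPM to 39.6 and 40.0 CPM (-0.68, SE 0.10, adjusted p = 3.34e-06, edgeR), with C1qa at -0.58 and C1qc at -0.63. With library size alone only C1qb of the chains kept the call (-0.32, adjusted p = 0.0384, edgeR), and the median gene of this zone was then 0.41 higher in the ischemic sections.

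The summed neutrophil genes followed the same zone. Their level was 1.80 and 2.11 CPM in the normal outer stripe and 347 and 359 CPM in the ischemic one, against 74.3 and 86.4 CPM in the ischemic cortex and 375 and 162 CPM in the ischemic pelvis, and S100a8 was at 138 and 141 CPM in the ischemic outer stripe. Of the other monocyte genes, 10 of 11 tested were higher there and 1 lower. Fn1 was among the higher ones (1.13, adjusted p = 1.7e-09) but was called lower in the cortex (-0.80, adjusted p = 0.000293, edgeR). Ccl2 was at 1.35, 3.01, 29.9 and 21.4 CPM and Csf1 at 8.42, 9.72, 74.2 and 69.6 CPM. How much of the Lyz2, Cd14 and Plac8 counts of the outer stripe came from neutrophils was not tested.

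Lyz2 was called lower in 3 of the other zones. In the inner medulla it fell from 210 and 235 CPM to 139 and 97.3 CPM (-1.10, SE 0.23, adjusted p = 0.0104, edgeR). In the cortex it was at 22.5, 39.7, 24.98 and 22.6 CPM, where the groups overlapped in CPM and the test called it lower (-0.54, adjusted p = 0.0162, edgeR). In the pelvis it was at 160, 303, 161 and 80.1 CPM (-1.003, adjusted p = 0.0339, edgeR) and in the inner stripe at 87.5, 91.6, 78.5 and 104 CPM with no call (-0.30, adjusted p = 0.263, edgeR). The cortex call was lost with library size alone (adjusted p = 0.186), the pelvis call in DESeq2 (adjusted p = 0.366), and the inner medulla call when either ischemic section was left out (adjusted p of 0.0507 and 0.249).

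**Figure D4:**
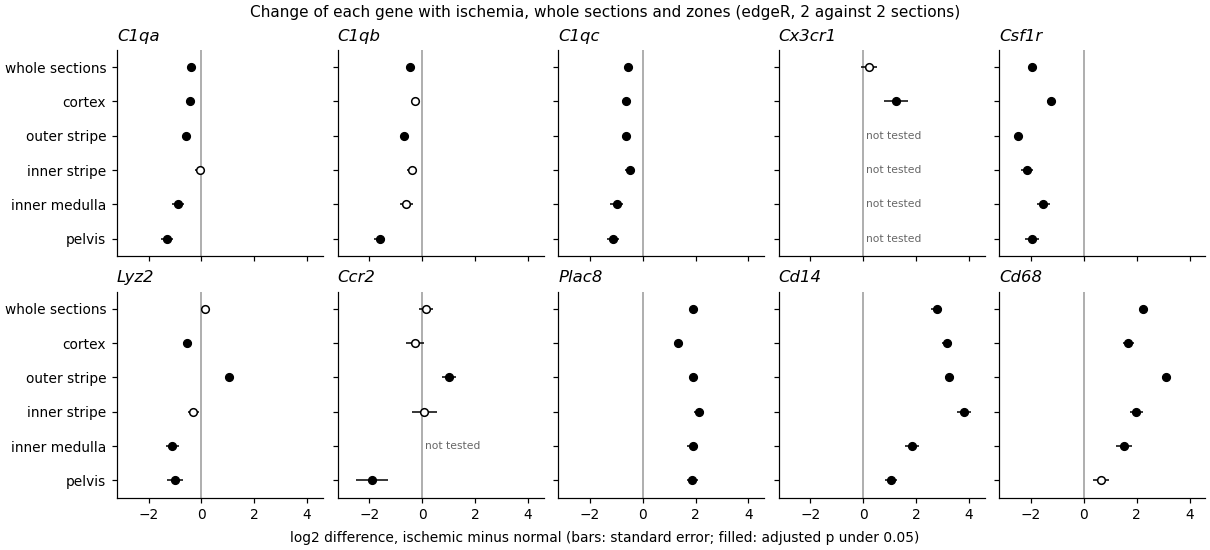
Log2 difference of ischemic minus normal for each gene in whole sections and in each zone, with the standard error as a bar and a filled point where the adjusted p was under 0.05 (edgeR, 2 against 2 sections). Plac8, Cd14 and Csf1r keep 1 direction in every row, while Lyz2 and Ccr2 are to the right of 0 in the outer stripe and to the left in the pelvis.

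Contrasts that set the change in the outer stripe against the change in each other zone, added after these values were seen, gave Lyz2 an excess of 1.54 over the cortex (adjusted p = 0.00169), 1.32 over the inner stripe (adjusted p = 0.0114), 2.08 over the inner medulla (adjusted p = 0.000212) and 2.02 over the pelvis (adjusted p = 0.000341, edgeR). Against the cortex 3 members were called higher and 3 lower (background 21.5%, with 8.06% higher and 13.5% lower), and against the inner stripe 2 higher (9.31%, with 6.62% and 2.68%). Against the inner medulla 4 were called higher and 1 lower (15.6%, with 9.5% and 6.12%), and against the pelvis 6 higher (18.6%, with 10% and 8.57%). Cd68 differed likewise from all 4 zones, by 1.40, 1.10, 1.52 and 2.41. Cd14 exceeded only the inner medulla (1.31) and the pelvis (2.13), and Plac8 only the cortex (0.55). C1qb fell further than in the cortex (-0.45) and less than in the pelvis (0.89), C1qa less than in the pelvis (0.71). Cx3cr1 was called lower against the cortex (-2.16), on 16, 6, 7 and 4 outer stripe counts and 9, 5, 17 and 9 cortex counts, and DESeq2 did not call its cortex difference. Ccr2 exceeded the inner medulla (2.09, adjusted p = 0.0463) and the pelvis (2.85, adjusted p = 0.00414, edgeR), both on few counts. The inner medulla held 3.19% and 11.2% (normal) and 7.38% and 5.5% (ischemic) of the Ccr2 counts of a section, which numbered 441 over the 4 sections. DESeq2 did not call its pelvis difference. Csf1r fell further in the outer stripe than in the cortex (-1.26) and the inner medulla (-0.97), whereas its change did not differ by test from that in the inner stripe (-0.34, adjusted p = 0.287) or the pelvis (-0.53, adjusted p = 0.224, edgeR).

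Cd14 and Plac8 were higher in every zone. In the cortex Cd14 went from 1.68 and 2.55 CPM to 19.3 and 22.9 CPM (3.16, SE 0.19), and in the inner stripe from 1.77 and 4.58 CPM to 50.3 and 48.5 CPM (3.81, SE 0.28). In the pelvis, which had the most Cd14 before injury, it went from 26.9 and 41.4 CPM to 75.1 and 76.1 CPM (1.06, SE 0.23). The ischemic sections were above the normal ones in each of these zones. Plac8 rose by 1.35 in the cortex, 2.14 in the inner stripe and 1.89 in both inner medulla and pelvis, and Cd68 by 1.67, 1.99 and 1.52 in the first 3 of these, while its pelvis difference of 0.65 did not pass (adjusted p = 0.122, edgeR).

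The number of the 10 members called was 8 of 10 tested in the cortex, 4 higher and 4 lower, with a background of 49.8% of genes (25.7% higher, 24.1% lower). It was 5 of 9 in the inner stripe, 3 higher and 2 lower (43.2%, with 20.2% and 23%), and 7 of 8 in the inner medulla, 3 higher and 4 lower (27.4%, with 11.1% and 16.4%). In the pelvis it was 8 of 9, 2 higher and 6 lower (25.3%, with 10.7% and 14.6%). Csf1r was lower in all of them, by -1.25, -2.16, -1.53 and -1.96. In the pelvis the C1q chains fell in CPM as well, with C1qb from 168 and 255 CPM to 73.5 and 72.9 CPM (-1.60, SE 0.22, adjusted p = 0.000188, edgeR), and the 3 kept the call with library size alone. The summed pelvis markers also fell there, so the spots compared may not be like tissue, and the part of this in the pelvis differences was not tested. Cx3cr1 in the cortex was called higher (1.24, adjusted p = 0.0377, edgeR) on 14 counts in the normal and 26 in the ischemic sections, and DESeq2 did not call it (adjusted p = 0.269). Ccr2 in the pelvis was called lower (-1.88, adjusted p = 0.037, edgeR) with 13, 24, 8 and 1 counts, which DESeq2 did not call (adjusted p = 0.181).

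Co-expression was read as the Spearman correlation of CPM across the spots of a section with at least 100 UMIs. Spots of a section share its library and neighbours share tissue, so these values are descriptions, and weak correlations in sparse counts are no finding. C1qa and C1qb, 2 chains of 1 protein, gave 0.285 and 0.304 in the normal and 0.247 and 0.234 in the ischemic sections. Lyz2 with the summed C1q chains gave 0.333 and 0.342 in the normal and 0.222 and 0.226 in the ischemic sections.

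Correlations of Lyz2 with Ccr2 were 0.105, 0.130, 0.203 and 0.193 (normal 1, normal 2, ischemic 1, ischemic 2), and after thinning to 2000 UMIs 0.065, 0.044, 0.089 and 0.097. With the summed neutrophil genes they were 0.068, 0.165, 0.267 and 0.240, and 0.032, 0.048, 0.181 and 0.170 after thinning. These values move with how often a list is detected, and the neutrophil list had 97 and 98 counts in the normal sections against 6096 and 5173 in the ischemic ones. Thinned spots with a count of both Lyz2 and the neutrophil list numbered 3, 5, 98 and 97. That is 1.77, 1.77, 1.57 and 1.63 times the number expected from their rates within each zone. The normal ratios rest on 3 and 5 spots, too few to tell whether the ratio changed with ischemia. With the summed T cell genes the correlation was 0.171, 0.213, 0.038 and 0.023, while that list fell from 810 and 1024 counts to 91 and 85. For Lyz2 and the C1q sum, spots with both numbered 76, 132, 76 and 89, which is 1.495, 1.56, 1.38 and 1.485 times the expected number, and these ratios lay close together in the 4 sections.

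**Figure D5:**
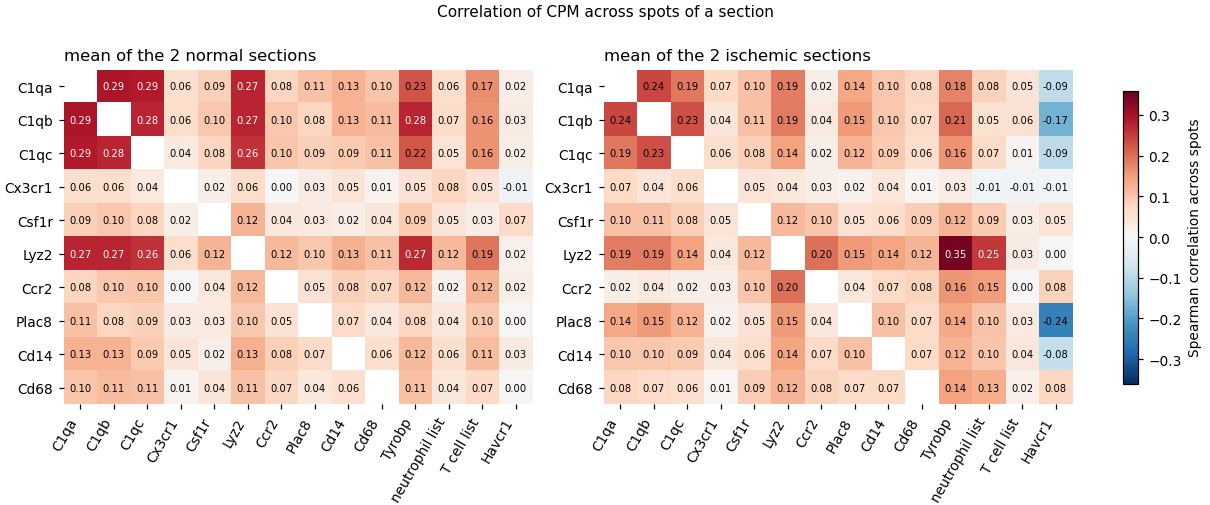
Spearman correlation of CPM across spots, as the mean of the 2 normal (left) and the 2 ischemic sections (right), for the 10 genes (rows) with each other, with Tyrobp, with summed neutrophil and T cell genes and with Havcr1 (columns). The C1q chains and Lyz2 form a block in the normal panel that is paler in the ischemic one, Csf1r is pale in both, and Plac8 is blue with Havcr1 in the ischemic panel.

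Csf1r had low values with the C1q chains from spot to spot. Its correlation with the C1q sum was 0.107, 0.087, 0.095 and 0.139, and with Lyz2 0.139, 0.104, 0.111 and 0.121.

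Plac8 and the C1q sum gave 0.098, 0.094, 0.231 and 0.168 in the same order of sections. After thinning each spot to 2000 UMIs the values were 0.094, 0.038, 0.059 and 0.057, and the ischemic values were no longer the higher ones. Thinning leaves fewer counts of both, and Plac8 was still found in more ischemic than normal spots. The thinned values are therefore not matched on detection, and the part of depth was not tested. With Havcr1, which injured proximal tubule cells switch on, Plac8 gave -0.273 and -0.212 in the ischemic sections, and -0.068 in each when ranks were taken within zones. Cd14 and Cd68 gave 0.032, 0.090, 0.076 and 0.070 with each other.

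Over the 20 sums of a section and zone, the genes whose log2(CPM + 1) followed a member most closely were ranked among 12661 genes with at least 200 counts. For C1qb these were C1qc (Pearson r = 0.956), Ildr1, Sytl1, Ptpn18 and H2-D1, with C1qa in place 6 and Csf1r in place 4153 (r = 0.486). For Lyz2 they were Coro1a (0.938), Tyrobp, Bok, Arhgap45 and Fcer1g, of which Coro1a, Tyrobp and Fcer1g are leukocyte genes. For Cd14 they were Klf10 (0.981), Nono, Il1rn, Arf1 and Fosl2, with Cd68 in place 285 (0.931), Plac8 in place 370 (0.923) and Lyz2 in place 6743 (0.456). The sums of 1 section share its depth, and r is a description.

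In the mouse genome (GRCm38) the C1q chains are neighbors on the minus strand of chromosome 4, within 18675 bases from C1qb at chr4:136880129-136886187 over C1qc at chr4:136889804-136893065 to C1qa at chr4:136895917-136898803. Lyz2 is at chr10:117277331-117282321, Cd68 at chr11:69664213-69666153, Plac8 at chr5:100553725-100572245 and Cx3cr1 at chr9:119901616-120069879, all on the minus strand, and Ccr2 at chr9:124101950-124113557 on the plus strand. The gene model of Cx3cr1 overlaps 9 other genes. Lyz1, the close copy of Lyz2, had 33 counts over the 4 sections against 8380 of Lyz2, and reads common to both could be counted for neither or either.

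Promoters of 7 of the 10 genes (RefSeq, GRCm38.p6, 250 bases before to 50 bases after the start, 8 windows) were searched on both strands for GAGGAAG, the core bound by PU.1, the factor of macrophage fate, and for TGANTCA, the AP-1 site of stress response factors. C1qa, Csf1r and Cd14 were not searched. Among the 7 genes searched, C1qc alone held the PU.1 core, at -194 on the other strand. Cd68 alone of them held the AP-1 letters, at -149 and -24. Among all 32851 listed promoters, 13.63% held the first motif and 7.81% the second, so these matches are a description and the lack of one in the other windows says nothing about a factor. Both windows are shown 5′ to 3′ along the gene with the matches in capitals, as the only searched members with a match.
C1qc, chr4:136892865-136893164, minus strand: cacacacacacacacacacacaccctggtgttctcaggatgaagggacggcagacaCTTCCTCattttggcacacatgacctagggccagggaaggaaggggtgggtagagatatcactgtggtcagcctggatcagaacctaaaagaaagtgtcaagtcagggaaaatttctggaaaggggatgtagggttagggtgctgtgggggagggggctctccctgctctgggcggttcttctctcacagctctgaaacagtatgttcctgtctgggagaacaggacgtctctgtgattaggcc
Cd68, chr11:69666121-69666420, minus strand: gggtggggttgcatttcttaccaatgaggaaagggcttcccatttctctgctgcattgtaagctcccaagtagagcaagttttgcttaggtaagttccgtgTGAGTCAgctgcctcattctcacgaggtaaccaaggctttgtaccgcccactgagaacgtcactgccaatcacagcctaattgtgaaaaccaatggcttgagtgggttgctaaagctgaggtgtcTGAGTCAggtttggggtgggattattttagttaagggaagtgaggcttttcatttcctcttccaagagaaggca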

How the data were processed

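The sections were measured with Visium spatial gene expression. The authors ran Space Ranger 1.3.0 (build mm10 in the submitters' processing notes) and deposited UMI counts for every gene at every spot, not normalized, with the position of each spot. Counts were summed over tissue spots per section, or per section and zone, and expressed as CPM. Tests were edgeR 4.0.16 in R 4.3.3 (TMM, filterByExpr, quasi-likelihood test, threshold 0.05), with the section as the unit; each zone was fitted alone, and the contrast of outer medulla with cortex had the section as a block. Spots were never replicates. Shares of spots were computed after thinning to 2000 UMIs; shallower spots were left out.

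Zones came from the marker lists scored per spot and its neighbours, with at least 20 spots per zone. Intervals on shares are exact binomial (95%). The alternatives were DESeq2 1.42.0, other scaling, no filter, each section left out, other zone rules and a block on the replicate number. The test script was tested on simulated data. The 10 genes, the gene lists and the zone rules were chosen with earlier results of these data known. Named genes were the 10 members everywhere, from other lists the 3 genes with the most counts and any gene a result turned on, and the 5 genes most like C1qb, Lyz2 and Cd14. Tlr4, Ly6c2, Ly6g, Itgam, Fcgr1 and Fcgr3 were named after their values were seen. Coordinates were taken from GENCODE M21 (GRCm38) by identifier, with 32158 of 32285 (99.6%) matched. Other sections and assays of the study were not analysed here.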

Additional observations from a re-analysis of the deposited data

Results flagged for a closer look

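The contrast of outer medulla with cortex differed between the normal and the ischemic sections, by a test of the difference itself, for 4 members. The difference was 0.88 (log2) for Lyz2, 0.84 for Cd68, 0.67 for Plac8 and -1.09 for Csf1r (edgeR, section as a block). With 2 sections in each group no search for single outlying sections was possible.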

How the results depend on the processing

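Over 9 comparisons 85 differences of members were tested and 63 called, and none that was called changed its sign under any alternative run. DESeq2 lost 8 calls, relative log expression size factors 1, no filter 3, and library size alone, chosen after the data were seen, 11. With library size alone 4 members were called over whole sections in place of 7, and 5 in the cortex in place of 8. With a section left out, the lone section of its group was assumed to vary like the others. Called members then ran from 5 to 9 in whole sections, 5 to 8 in the cortex, 8 to 9 in the outer stripe, 4 to 7 in the inner stripe, 4 to 8 in the inner medulla (4 without ischemic section 2) and 6 to 8 in the pelvis. For outer medulla against cortex they ran from 4 to 6 (normal), 5 to 9 (ischemic) and 1 to 4 (difference between the conditions, 1 without ischemic section 1 and 2 without ischemic section 2). Genes called in the inner medulla numbered 3077, but 4978 in 1 model over all zones, 1935 in DESeq2, and 1561 and 1759 without ischemic section 1 and 2. In the inner stripe 5417 became 3178 and 3138, and for the ischemic contrast of outer medulla with cortex 6302 became 3036 and 3281, without ischemic section 1 and 2. In the pelvis 2677 became 1455 in DESeq2 and 1413 without ischemic section 1, and for the difference between the conditions 3276 became 1153 and 1272 without ischemic section 1 and 2.

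Sections share only a replicate number: deviations of normal section 1 and ischemic section 1 from their group means correlated with r = 0.162 over 15305 genes, with only 2 pairs. With the replicate number as a block 7 members were called over whole sections and 9 in the cortex, where C1qb was added (-0.24, adjusted p = 0.0396, edgeR), and no call was lost. Without the section block the difference of the outer medulla contrast between conditions called 3 members in place of 4 and 2045 genes in place of 3276.

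Without C1qb and Lyz2 the mean ratio of recruited to resident CPM was 0.297 for normal and 2.15 for ischemic sections. The mean correlation of C1qa with C1qb was 0.506 pooled over neighbours, 0.266 within zones and 0.134 after thinning (normal), and 0.464, 0.21 and 0.065 (ischemic). For Lyz2 with the C1q sum the values were 0.587, 0.294 and 0.173 (normal) and 0.397, 0.192 and 0.102 (ischemic). Depth limits Cx3cr1 and Ccr2, with 119 and 441 counts in all.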
